A study of Homo sapiens with 4 samples.

Results

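The genes of the human proteasome were followed in MDA-MB-231 cells, an established human breast cancer line, after 24 h of MGH-CP1 at 10 µM by the sample labels (the study's methods give 10 mM) or of vehicle control. MGH-CP1 blocks the palmitoylation of the TEAD transcription factors, the DNA-binding partners of YAP and TAZ. Each condition had 2 mRNA-seq libraries made from poly-T-selected RNA, and no source says that they came from separate cultures, so the p-values below measure the spread between these libraries, which may be technical. Members were the protein-coding rows whose symbol is PSM, a letter from A to G and a number. This gave 49 rows of 48162 genes, with 48 symbols, since PSMA1 has 2 rows.

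The proteasome is the main protease for ubiquitin-tagged proteins in the cytosol and nucleus. Its core particle is a barrel of alpha rings (PSMA genes) around beta rings (PSMB genes), and PSMB5, PSMB6 and PSMB7 carry the active sites. Interferon-inducible PSMB8, PSMB9 and PSMB10 can replace these catalytic subunits to form the immunoproteasome, which favours peptides suited to MHC class I presentation. The regulatory particle has a base, with an ATPase ring (PSMC genes) and further subunits, and a lid (PSMD genes) that recognise, deubiquitinate and unfold substrates. Alternative activators (PSME genes), an inhibitor (PSMF1) and assembly chaperones (PSMG genes, PSMD5, PSMD9 and PSMD10) complete the set.

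The members split by role upon MGH-CP1 treatment. All 3 immunoproteasome subunits rose, and so did PSME1 and PSME2, the activator subunits that are induced with them by interferon gamma. Of the 17 regulatory particle genes under the naming rule 10 fell, whereas 1 of the 12 measured constitutive core genes fell and none rose. Among all genes tested 23.8% fell and 27.1% rose, and among those of at least 10 FPKM 32.2% fell. The assembly chaperone PSMG1 had the largest fall of any member, from a mean of 24.7 to 15.0 FPKM. Levels are given as FPKM, fragments scaled to the listed gene length and to the fragment total of the library. Comparisons of levels between genes depend on this listed length, a fixed number per gene.

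Promoter sequences show what is written at the starts of the genes that moved. Promoter windows of 300 bases (250 before to 50 after a RefSeq start, GRCh38.p14) were found for 42 of the 48 symbols, in 51 windows. PSMA7, PSMB1, PSMB6, PSMB7, PSMD4 and PSMG3 had no window in the table used. Letters of the interferon-stimulated response element (ISRE, searched as GAAANNGAA on both strands) were in windows of 8 of the 42 members (19.0%) and of 9.86% of 27305 genes. Of these 8 members, PSMB8, PSMB10, PSME1 and PSME2 were called higher, none was called lower, and PSMA4, PSMB4, PSMC2 and PSMG4 were not called. Among all genes tested, with or without these letters, 27.1% were called higher and 23.8% lower. The 4 that rose and, for comparison, PSMC2 and PSMG4 are printed from 50 bases before to 50 bases after the start, 5′ to 3′ on the strand of the gene, with the matched letters in capitals. The last line is a stretch of 100 bases of the PSMG1 window that begins 230 bases before its start, with its match to the antioxidant response element in capitals.
PSMB8 (chr6:32843998-32844097, minus strand): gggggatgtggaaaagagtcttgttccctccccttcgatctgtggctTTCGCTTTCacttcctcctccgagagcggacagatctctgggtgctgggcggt
PSMB10 (chr16:67936801-67936900, minus strand): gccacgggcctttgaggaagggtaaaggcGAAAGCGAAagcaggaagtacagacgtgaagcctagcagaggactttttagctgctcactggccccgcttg
PSME1 (chr14:24136144-24136243, plus strand): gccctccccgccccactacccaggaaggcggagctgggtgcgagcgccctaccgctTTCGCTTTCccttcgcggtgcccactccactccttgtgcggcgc
PSME2 (chr14:24146561-24146660, minus strand): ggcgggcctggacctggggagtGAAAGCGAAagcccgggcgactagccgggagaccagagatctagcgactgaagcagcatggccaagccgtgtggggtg
PSMC2 (chr7:103347593-103347692, plus strand): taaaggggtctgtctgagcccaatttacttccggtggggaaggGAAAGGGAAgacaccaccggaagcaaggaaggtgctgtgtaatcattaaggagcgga
PSMG4 (chr6:3258897-3258996, plus strand): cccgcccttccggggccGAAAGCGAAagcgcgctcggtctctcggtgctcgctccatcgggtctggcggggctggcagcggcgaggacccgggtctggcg
PSMG1 (chr21:39183582-39183681, minus strand): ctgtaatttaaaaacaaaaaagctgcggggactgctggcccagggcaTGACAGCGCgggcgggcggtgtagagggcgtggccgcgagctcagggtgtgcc

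The same 9 letters, GAAAGCGAA on one strand or the other, stood within 50 bases of the start in PSMB8, PSMB10, PSME1 and PSME2, which rose, and in PSMG4, which was not called. This narrower pattern was read from the printed stretches after the calls were known. Its share over all genes is not given here, so it is a description only. PSMB9 rose without a match to the ISRE letters in its window. The antioxidant response element (ARE, searched as TGACNNNGC), read by the proteasome gene regulator NFE2L1 and by NFE2L2, matched in 15 of the 42 members (35.7%) and in 16.1% of all genes. Of those 15, PSMC4, PSMC5, PSMD1, PSMD12, PSMD5, PSME4 and PSMG1 were called lower, PSMB9, PSME1 and PSME2 higher, 4 were not called and 1 was not tested. The TEAD core letters GGAATG matched in 7 of 42 members (16.7%) and in 16.7% of all genes; 2 of the 7 were called higher (PSMB8 and PSME2), 2 lower (PSMC5 and PSME3) and 3 were not called. Letters of the CCAAT box (CCAAT) were in 20 members (47.6%, against 39.7% of all genes), those of the TATA box (TATAAA) in 5 (11.9%, against 14.0%), and those of the nuclear respiratory factor site (GCGCANGCG) in 5 (11.9%, against 9.02%). No match in a member's window overlapped a match to another of these 6 motifs. The calls among members with a match stand beside 27.1% higher and 23.8% lower among all genes tested. Whether calls go with a motif was not tested. A match describes the letters in the window and is neither a bound site nor a cause.

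The members held between 98353 and 158090 of the 17577930 to 25508824 fragments in a library. The MGH-CP1 libraries were the shallower pair, with at most 17997221 fragments, and the part of depth in the results was not tested. The line's markers VIM, CD44 and EGFR were at 34.9 to 281 FPKM in the 4 libraries, ESR1, PGR and CDH1 at 0.638 or below, and the leukocyte markers PTPRC, CD3E and CD68 at 0.0321 or below. Of the 49 rows, 43 had a mean of at least 1 FPKM and were tested, among 12080 genes, with limma on log2(FPKM + 1) and Benjamini-Hochberg adjustment over all genes tested, at an adjusted p threshold of 0.05. A log2 fold change below is the MGH-CP1 mean minus the vehicle control mean on this scale, which understates the change of low genes. The lowest tested member, PSMD9, had 63 to 99 fragments in a library. In bulk RNA, fewer cells of a type and less RNA per cell cannot be told apart.

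Of the 43 tested members, 5 were called higher (11.6%), 16 lower (37.2%) and 22 were not called. Among all genes tested, 27.1% were called higher and 23.8% lower. Members are mostly well-expressed genes, and among the 6138 genes with a mean of at least 10 FPKM, 27.8% were called higher and 32.2% lower. The share of members called lower was thus near this background, and fewer members than genes at large were called higher. Both MGH-CP1 libraries lay above both control libraries for 12 members (27.9%, against 39.8% of all genes tested) and below them for 25 (58.1%, against 37.4%), and the groups overlapped for 6. The median log2 fold change of the members was -0.12 (SD 0.02 between the 4 possible pairings of 1 treated and 1 control library, which are not independent), with a range from -0.69 to 0.91, beside a median of 0.01 over all genes tested and -0.03 over genes of at least 10 FPKM.

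**Figure D1:**
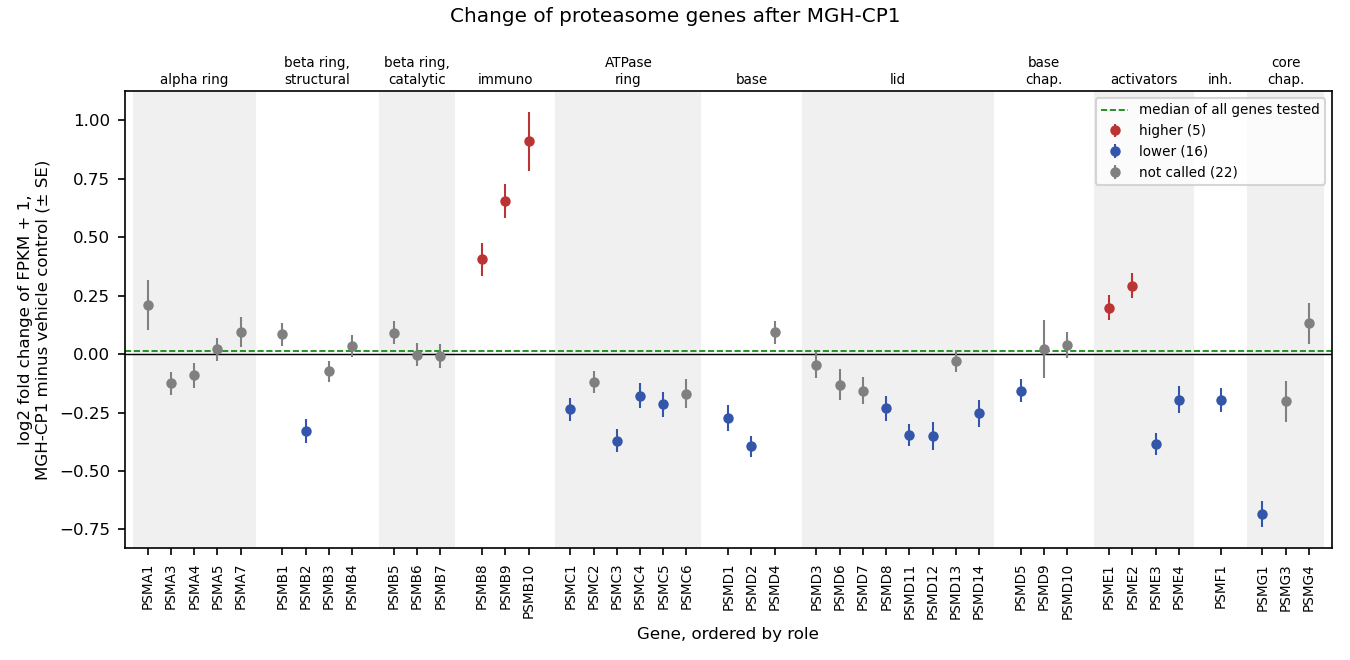
Log2 fold change (MGH-CP1 minus vehicle control, on log2(FPKM + 1)) of the 43 tested members, ordered by role, with bars for the SE of the limma fit (2 libraries per condition). Red points were called higher (5), blue points lower (16) and grey points not called (22), and the dashed line is the median of all genes tested. The immunoproteasome subunits stand at 0.41 to 0.91, while all 6 genes of the ATPase ring and the 8 lid genes plotted lie below 0.

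The members made up 0.913% and 0.922% of all FPKM in the controls, and 0.813% and 0.823% after MGH-CP1. The means were 0.917 ± 0.00593% and 0.818 ± 0.00737% (SD, n = 2 each), a difference of -0.0992 percentage points. The groups did not overlap, and the exact permutation test gave p = 0.33 (two-sided), the smallest value that 2 libraries against 2 allow. By recovered fragments the members' share was 0.615% and 0.620% in the controls and 0.558% and 0.560% after MGH-CP1.

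Among the core particle genes, the alpha ring, which gates the entry of substrates, was measured through 5 of its 9 rows, and none of the 5 was called. PSMA7 had the highest FPKM of all members, at 225 and 254 in the controls and 250 and 261 after MGH-CP1. Its groups overlapped (log2 fold change 0.10, limma adjusted p = 0.249). PSMA3 had the lowest log2 fold change of the ring, -0.12 (SE 0.05, limma adjusted p = 0.0602), from 105 and 101 to 95.9 and 92.6 FPKM. PSMA1 had the highest, 0.21 (SE 0.11, limma adjusted p = 0.134), at 3.55 and 4.26 against 5.02 and 4.32 FPKM. For PSMA3 and PSMA1 the groups did not overlap, yet neither difference passed the test. PSMA4 and PSMA5 had log2 fold changes of -0.09 and 0.02. Without vehicle control replicate 2, PSMA7 was called higher (0.18) and PSMA3 lower (-0.15).

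The PSMA1 level cannot be read as the abundance of its transcript, because the row that was read shares 26562 bases with a second PSMA1 row listed at 0, and how fragments in shared stretches were counted is not stated. The same limit holds for PSMA2 and PSMA6, essential subunits of the ring. Other genes listed on the same strand cover almost all of each, and PSMA2 had 50 to 75 and PSMA6 12 to 21 fragments in a library. Both were under the filter, as were the second PSMA1 row and PSMA8, a testis subunit with 0 fragments in every library. PSMG2 (9, 9, 12 and 11 fragments in control 1, control 2, MGH-CP1 1 and MGH-CP1 2) also lies wholly within another listed gene, as does almost all of PSMD9. PSMB11, the thymus-specific catalytic subunit, had 0 fragments in every library. Of 27 listed pseudogenes of the family, 10 had a fragment, with at most 33 in a library.

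In the beta ring, PSMB2, a structural subunit, was the only constitutive core gene called lower. Its level went from 86.1 and 81.8 FPKM in the control libraries to 67.6 and 65.6 in the MGH-CP1 libraries (log2 fold change -0.33, SE 0.05, limma adjusted p = 0.0010). Both treated libraries were below both controls. The other structural subunits, PSMB1, PSMB3 and PSMB4, had log2 fold changes of 0.09, -0.07 and 0.03 and were not called. PSMB1 had the highest of them, at 103 and 103 against 113 and 106 FPKM (limma adjusted p = 0.179).

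The 3 constitutive catalytic subunits were not called. PSMB5, the chymotrypsin-like subunit, was at 90.2 and 96.4 FPKM in the controls and 99.4 and 99.5 after MGH-CP1 (log2 fold change 0.09, SE 0.05, limma adjusted p = 0.161). PSMB6, the caspase-like subunit, was at 115 and 123 against 120 and 117 FPKM (log2 fold change -0.00, SE 0.05, limma adjusted p = 0.976). PSMB7, the trypsin-like subunit, was at 175 and 186 against 175 and 183 FPKM (log2 fold change -0.01, SE 0.05, limma adjusted p = 0.893). The groups overlapped for PSMB6 and PSMB7 and did not for PSMB5.

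Their interferon-inducible counterparts all rose. PSMB8, which takes the place of PSMB5, went from 35.1 and 38.5 FPKM to 46.4 and 51.8 (log2 fold change 0.41, SE 0.07, limma adjusted p = 0.0020). PSMB9, the counterpart of PSMB6, went from 10.3 and 11.5 FPKM to 17.2 and 18.2 (log2 fold change 0.65, SE 0.07, limma adjusted p = 0.0002). PSMB10, the counterpart of PSMB7, went from 4.06 and 5.76 FPKM to 9.76 and 10.2 (log2 fold change 0.91, SE 0.13, limma adjusted p = 0.0007). In each case both treated libraries were above both controls, as they were for 39.8% of all genes tested. Among all genes tested, 27.1% were called higher. The ratio of mean FPKM was 1.33 for PSMB8, 1.63 for PSMB9 and 2.03 for PSMB10. The increase on the log2 scale was thus ordered opposite to the control level, highest for the least abundant of the 3. PSMB10 rested on 126 and 179 fragments in the controls and 214 and 219 after MGH-CP1.

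Each immunoproteasome gene also took a larger share of its pair. PSMB8 made up 28.0% and 28.6% of the FPKM of PSMB8 plus PSMB5 in the controls and 31.8% and 34.2% after MGH-CP1. The share of PSMB9 in its pair with PSMB6 went from 8.18% and 8.56% to 12.5% and 13.4%. The share of PSMB10 in its pair with PSMB7 was 2.27% and 3.01% in the control libraries and 5.28% in both MGH-CP1 libraries. The log2 ratio of FPKM + 1 differed by 0.31 for PSMB8 to PSMB5, 0.66 for PSMB9 to PSMB6 and 0.92 for PSMB10 to PSMB7. No ratio overlapped between the groups, and the exact permutation p was 0.33 for each of the 3, the smallest possible, and 0.33 after Benjamini-Hochberg adjustment. The constitutive gene had the higher FPKM of each pair in every library.

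**Figure D2:**
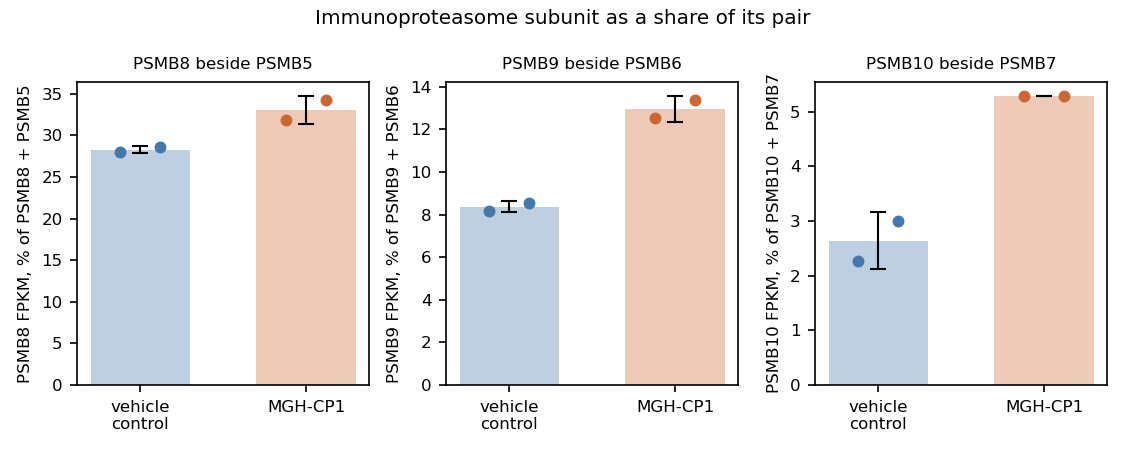
Share of each immunoproteasome gene in the FPKM of its pair with the constitutive subunit it replaces, in percent, for vehicle control and MGH-CP1. Bars are means, error bars the SD of 2 libraries and points single libraries, with a separate axis from 0 for each pair. The mean share goes from 28.3% to 33.0% for PSMB8, from 8.37% to 13.0% for PSMB9 and from 2.64% to 5.28% for PSMB10.

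PSMB8 and PSMB9 are neighbours in the MHC region of chromosome 6, at 32808494 to 32812480 on the minus strand and 32811913 to 32827362 on the plus strand (hg19, the build in the submitters' processing notes). Their listed extents share 568 bases, and that of PSMB9 covers all of TAP1, a subunit of the peptide transporter that feeds MHC class I, on the opposite strand at 32812986 to 32821755. Strand use in the counting is not stated, so fragments from these overlaps cannot be told apart. TAP1 rose from 31.4 and 32.6 FPKM to 42.6 and 44.3 (log2 fold change 0.43, SE 0.05, limma adjusted p = 0.0004), and its part in the PSMB9 value was not tested. PSMB10 lies elsewhere, on chromosome 16 at 67968405 to 67970990, and 58.6% of it is shared with a gene listed on the same strand that had 9 to 20 fragments in a library, whose part in the PSMB10 value was not tested.

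In the regulatory particle, all 6 genes of the ATPase ring, which unfolds substrates, had both MGH-CP1 libraries below both controls (against 37.4% of all genes tested), and 4 were called lower (against 23.8%, or 32.2% of genes of at least 10 FPKM). PSMC3 fell the most of them, from 161 and 166 FPKM to 123 and 130 (log2 fold change -0.37, SE 0.05, limma adjusted p = 0.0006). PSMC1, PSMC4 and PSMC5 also fell, with log2 fold changes of -0.24, -0.18 and -0.22. PSMC2 had the smallest difference, at 48.6 and 48.1 against 44.7 and 44.3 FPKM (log2 fold change -0.12, SE 0.05, limma adjusted p = 0.0696), and PSMC6 was not called either (log2 fold change -0.17, limma adjusted p = 0.0503). The summed FPKM of the ring was 431 and 437 in the controls and 357 and 369 after MGH-CP1.

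The non-ATPase subunits of the base were split. PSMD2, a large scaffold subunit, fell from 215 and 221 FPKM to 164 and 167 (log2 fold change -0.39, SE 0.05, limma adjusted p = 0.0003), the largest fall in the regulatory particle. The listed extent of PSMD2 lies wholly within that of EIF2B5 on the same strand, which had 1412 to 2255 fragments in a library against 10144 to 19443 for PSMD2, and the part of this overlap in the PSMD2 value was not tested. PSMD1, the other scaffold, fell with a log2 fold change of -0.27 (limma adjusted p = 0.0049). PSMD4, a ubiquitin receptor, was at 94.3 and 100 FPKM against 103 and 104 and was not called (log2 fold change 0.09, SE 0.05, limma adjusted p = 0.146). Among the 17 regulatory genes under the naming rule, only PSMD4 had both MGH-CP1 libraries above both controls. SHFM1, a small lid subunit whose symbol lies outside the rule, rose from 10.9 and 14.2 FPKM to 16.1 and 15.6 (log2 fold change 0.32, SE 0.11, limma adjusted p = 0.0342), and was named after its values were seen.

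In the lid, all 8 genes under the naming rule had a log2 fold change below 0, a sign whose share over all genes is not given here. Both MGH-CP1 libraries were below both controls for 7 of them (against 37.4% of all genes tested). Of the 8, 4 were called lower (against 23.8%, or 32.2% of genes of at least 10 FPKM). PSMD12 fell the most, from 39.9 and 36.6 FPKM to 30.3 and 29.3 (log2 fold change -0.35, SE 0.06, limma adjusted p = 0.0018). PSMD11, PSMD8 and PSMD14, the last of which is the deubiquitinase of the lid, fell with log2 fold changes of -0.34, -0.23 and -0.25. PSMD13 had the smallest difference, at 62.4 and 62.6 against 61.0 and 61.4 FPKM (log2 fold change -0.03, SE 0.05, limma adjusted p = 0.607). PSMD3, PSMD6 and PSMD7 were not called, at log2 fold changes of -0.05, -0.13 and -0.16, and the libraries overlapped for PSMD3 alone.

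Set side by side, the core and the regulatory particle differed in their position relative to each other. Of the 17 regulatory genes 10 were called lower (58.8%), and of the 12 constitutive core genes 1 (8.33%), beside the 32.2% of genes of at least 10 FPKM. Their median log2 fold changes were -0.22 (SD 0.02 between the 4 pairings) and 0.01 (SD 0.03). The core genes here include PSMA1, under the limit given above. Without PSMA1 the core median was -0.002 (SD 0.03), and 1 of 11 core genes was called lower (9.09%). The mean log2(FPKM + 1) of the regulatory genes minus that of the core genes was -0.30 and -0.35 in the controls and -0.54 and -0.49 after MGH-CP1. The groups did not overlap in this difference, which is given as a description without a test. The median level of the core genes was 96.5 and 98.6 FPKM in the controls and 97.7 and 96.5 after MGH-CP1, while that of the regulatory genes was 60.8 and 61.0 against 49.5 and 48.2 FPKM.

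**Figure D3:**
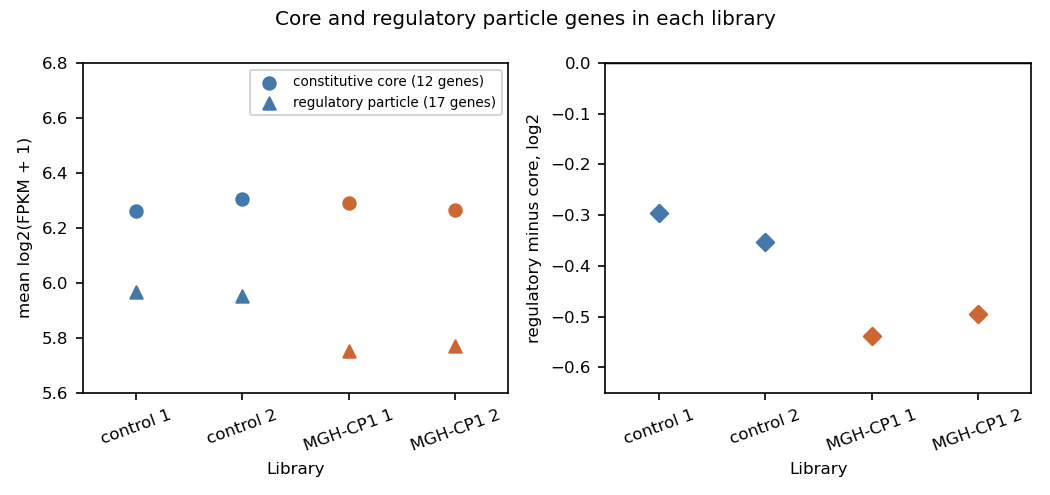
Mean log2(FPKM + 1) of the 12 constitutive core genes (circles) and the 17 regulatory particle genes (triangles) in each library, on an axis that does not start at 0, and at right the regulatory mean minus the core mean (log2). The core genes include PSMA1. The core means of the 4 libraries lie within 6.26 to 6.31, while the regulatory means are 5.97 and 5.95 in the control libraries (blue) and 5.75 and 5.77 in the MGH-CP1 libraries (orange).

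The genes of the core and regulatory particle did not have equal FPKM. Without PSMA1, the 28 tested genes of the core and regulatory particle ranged from 25.2 FPKM for PSMD6 to 239 FPKM for PSMA7 in the control mean, a 9.50-fold range. The deposited length is a fixed number per gene, so a gene with a long listed length has a lower FPKM for the same number of fragments.

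**Figure D4:**
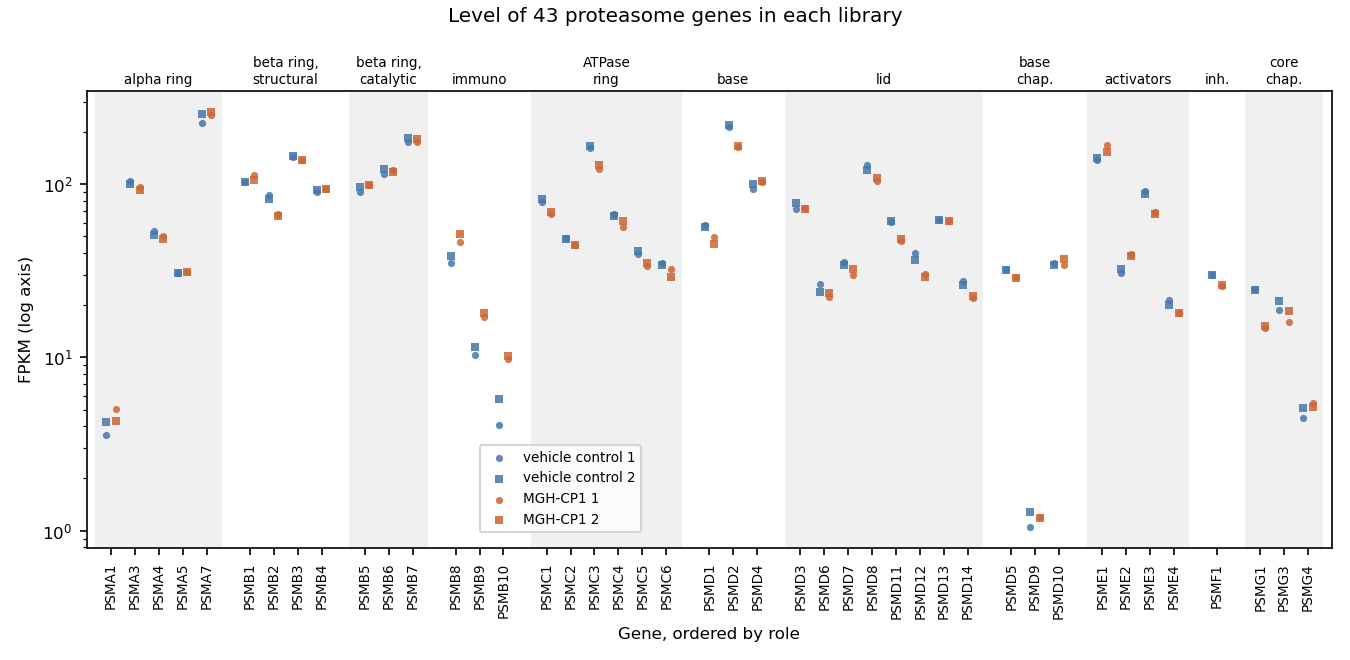
FPKM (log axis) of the 43 tested members in the 2 vehicle control libraries (blue) and the 2 MGH-CP1 libraries (orange), ordered by role, with circles for library 1 and squares for library 2. PSMA7 is the highest and PSMD9 the lowest, and the orange points sit above the blue ones for the 3 immunoproteasome genes and below them throughout the ATPase ring.

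The alternative activators parted into 2 pairs. PSME1 and PSME2, which form a ring-shaped cap together, both rose: PSME1 from 139 and 142 FPKM to 169 and 154 (log2 fold change 0.20, SE 0.05, limma adjusted p = 0.0168), and PSME2 from 30.9 and 32.3 FPKM to 39.4 and 38.5 (log2 fold change 0.29, SE 0.05, limma adjusted p = 0.0022). Their genes lie on chromosome 14 with 4397 bases between them in hg19, PSME1 on the plus and PSME2 on the minus strand. PSME1 was not called without MGH-CP1 replicate 1 (log2 fold change 0.14, limma adjusted p = 0.130), in limma without trend (adjusted p = 0.0618), with no filter on low values (limma adjusted p = 0.104) or without shared variance.

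PSME3, whose product caps the core particle in the nucleus, fell from 91.6 and 87.8 FPKM to 69.3 and 67.6 (log2 fold change -0.38, SE 0.05, limma adjusted p = 0.0004). PSME4, a single-chain activator, fell from 21.5 and 20.2 FPKM to 18.0 and 18.1 (log2 fold change -0.20, SE 0.06, limma adjusted p = 0.0231). PSMF1, an inhibitor of the core particle, fell from 30.0 and 29.8 FPKM to 25.7 and 26.2 (log2 fold change -0.20, SE 0.05, limma adjusted p = 0.0129). The libraries of the 2 conditions overlapped for none of the 4 activators and not for the inhibitor. Most genes did not overlap either: among all genes tested, both MGH-CP1 libraries lay above both controls for 39.8% and below them for 37.4%.

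Of the core assembly chaperones, which help the alpha ring to form, PSMG1 fell from 24.9 and 24.5 FPKM to 14.7 and 15.3 (log2 fold change -0.69, SE 0.06, limma adjusted p = 0.0001). Its mean fell by 39.3%, on 1364 and 1348 fragments in the controls and 570 and 578 after MGH-CP1. PSMG1 is on chromosome 21 at 40546695 to 40555777 on the minus strand in hg19. Its partner in a heterodimer, PSMG2, had too few fragments to be tested, at 0.210 and 0.209 against 0.395 and 0.371 FPKM. PSMG3 and PSMG4, which form the other heterodimer, were not called: PSMG3 was at 18.7 and 21.3 against 15.9 and 18.6 FPKM (log2 fold change -0.20, SE 0.09, limma adjusted p = 0.0909), and PSMG4 at 4.45 and 5.09 against 5.43 and 5.20 FPKM (log2 fold change 0.13, SE 0.09, limma adjusted p = 0.239).

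The chaperones that build the base gave 1 call among 3, beside 23.8% of all genes tested called lower and 32.2% of genes of at least 10 FPKM. PSMD5 fell from 32.6 and 32.1 FPKM to 29.1 and 28.8 (log2 fold change -0.16, SE 0.05, limma adjusted p = 0.0318). This call was lost in limma without trend (adjusted p = 0.0734) and after quantile normalization (limma adjusted p = 0.0503). It was also lost without shared variance and when any 1 library was left out. PSMD10, also known as gankyrin, was at 35.1 and 34.2 against 34.2 and 37.1 FPKM (log2 fold change 0.04, SE 0.06, limma adjusted p = 0.593). PSMD9, within the limit given above, was at 1.04 and 1.27 against 1.20 and 1.17 FPKM (log2 fold change 0.02, SE 0.12, limma adjusted p = 0.893). The libraries of the 2 conditions overlapped for PSMD9 and PSMD10.

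Genes that work with the proteasome but lie outside the naming rule were counted from lists drawn up with earlier results of these data known. Among 14 partners of the particle, 3 were called higher, SHFM1 among them, and 6 lower, with a median log2 fold change of -0.17, beside 27.1% higher and 23.8% lower among all genes tested. PAAF1, which binds free ATPase subunits, was higher, at 6.34 and 6.60 against 8.06 and 9.07 FPKM (log2 fold change 0.35, SE 0.08, limma adjusted p = 0.0067). The ubiquitin receptor ADRM1 was at 35.8 and 38.8 against 35.4 and 32.7 FPKM (limma adjusted p = 0.122), and the core maturation factor POMP at 50.0 and 54.5 against 56.5 and 58.5 FPKM (limma adjusted p = 0.0743), and neither was called.

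Of 7 regulators of proteasome genes, 1 was called higher and none lower, no larger shares than the 27.1% and 23.8% of all genes tested. This was NFE2L1, the transcription factor that raises proteasome genes when proteasome activity is limiting, at 68.7 and 72.8 FPKM in the controls and 84.3 and 82.5 after MGH-CP1 (log2 fold change 0.23, SE 0.05, limma adjusted p = 0.0054). NFE2L2 was at 55.9 and 48.2 against 49.6 and 44.4 FPKM, with overlapping libraries (limma adjusted p = 0.174). Among 11 ubiquitin and shuttle genes, 2 were called higher and 2 lower, again under those shares of all genes. The polyubiquitin gene UBB rose from 45.6 and 54.7 FPKM to 69.0 and 65.9 (log2 fold change 0.43, SE 0.08, limma adjusted p = 0.0031).

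Among regulators and neighbours of the immunoproteasome genes, IRF1, NLRC5 and TAP1 were called higher and TAP2 lower. IRF1, an interferon-responsive transcription factor, rose from 16.4 and 17.2 FPKM to 22.3 and 23.6 (log2 fold change 0.43, SE 0.06, limma adjusted p = 0.0007). NLRC5, a coactivator of MHC class I genes, rose from 4.68 and 4.26 FPKM to 6.70 and 7.20 (log2 fold change 0.54, SE 0.08, limma adjusted p = 0.0011). TAP2, the partner of TAP1 in the peptide transporter, fell from 17.3 and 15.8 FPKM to 11.1 and 11.6 (log2 fold change -0.50, SE 0.07, limma adjusted p = 0.0006), opposite to TAP1. A second TAP2 row was listed at 0 and overlaps the first.

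In a model without variance shared between genes, no member passed the threshold, and 19 of the 43 had an unadjusted p under 0.05. Leaving out 1 library changed further calls near the threshold. Without MGH-CP1 replicate 1, PSMC4 (-0.12), PSMC5 (-0.19), PSMD5 (-0.16), PSMD8 (-0.20), PSME4 (-0.19) and PSMF1 (-0.19) were no longer called, and PSMC6 (-0.24) was called lower. Without MGH-CP1 replicate 2, PSMD5 (-0.15) and PSME4 (-0.20) were not called, and PSMD7 (-0.21) and PSMG3 (-0.31) were called lower. Without vehicle control replicate 1, PSMC4 (-0.16), PSMD5 (-0.15) and PSME4 (-0.15) were not called and PSMG3 (-0.29) was called lower, and without vehicle control replicate 2, PSMD5 (-0.17) was not called and PSMD6 (-0.20) was called lower. The numbers in parentheses are log2 fold changes without that library.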

How the data were processed

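The authors deposited a table of FPKM for 48162 genes with symbol, hg19 coordinates and listed length. The submitters' processing notes name hg19, STAR and CASAVA 1.8; the counting tool, annotation and use of strand are not given in the sources used here. FPKM multiplied by length gave whole fragments (within 0.01) for 100% of values above 0, from which depth was recovered, 17577930 to 25508824 fragments per library. Columns named DMSO were matched to the vehicle control samples by their number.

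Genes whose FPKM averaged 1 or more were tested on log2(FPKM + 1) with limma 3.58.1 in R 4.3.3 (lmFit, eBayes with trend, two-sided, Benjamini-Hochberg over 12080 genes, threshold 0.05). The fit was checked on simulated data with a small set of changed genes, each changed by more than most members here. That check does not cover smaller changes or a table in which many genes change. The study's own test was a t-test per gene. Levels in each library are given for the catalytic and immunoproteasome subunits, activators, the inhibitor and chaperones, for the extreme members of every other role, for members under the filter and for named pathway genes, some of which are not reported here; other members are given by ranges and counts. Members and lists were chosen with earlier results of these data known. Promoter sequences came from RefSeq (GRCh38.p14) and coordinates were not converted between builds. Alternatives covered the pseudocount, filter, scaling, variance model, voom on recovered fragments, a replicate block and leaving out each library.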

Additional observations from a re-analysis of the deposited data

How the results depend on the processing

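Leaving out 1 library at a time gave 4 to 6 members called higher and 11 to 17 called lower, and a median log2 fold change of the members between -0.13 and -0.0942, with the lone library assumed to vary like the other condition. Without variance shared between genes, 0 members were called higher and 0 lower, as against 9 higher and 4 lower among all genes. The median was -0.17 with median-ratio scaling, which moved the median of all genes to -0.03, and -0.0821 with no filter on low values. The number called lower was 24 with median-ratio scaling, 18 with a mean FPKM of at least 5, 17 with voom, 15 after quantile normalization, 14 without trend and 12 with no filter, and the cause was not tested. Over the alternatives that share variance, 7 to 14 of the 17 regulatory particle genes and 1 to 4 of the 12 core genes tested (11 with the higher minimum) were called lower.

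Values near 0 changed sign in members that were not called. With median-ratio scaling the log2 fold change was -0.0325 for PSMA5, -0.0197 for PSMB4, -0.0141 for PSMD10 and -0.00694 for PSMD9, and after quantile normalization it was -0.00674 for PSMA7, 0.00789 for PSMB6 and -0.14 for PSMD9. Over the 4 omissions of a library, it ranged from -0.0481 to 0.0440 for PSMB6, -0.0524 to 0.0340 for PSMB7, -0.0176 to 0.0957 for PSMD10, -0.109 to 0.0133 for PSMD3 and -0.0542 to 0.0992 for PSMD9. The 3 immunoproteasome ratios kept their direction, between 0.24 and 0.39 for PSMB8, 0.60 and 0.71 for PSMB9 and 0.75 and 1.08 for PSMB10.

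Replicates share only a number. Deviations of same-numbered libraries from their group means correlated at 0.0777, and with the replicate block 5 members were called higher and 20 lower.

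Precision is limited by 2 libraries per condition and, for PSMD9, PSMB10 and PSMA1, by few fragments. PSMA1, PSMA2, PSMA3, PSMA6, PSMB9, PSMB10, PSMC2, PSMD2, PSMD9, PSMF1 and PSMG2 share bases with other genes listed on the same strand, and how the counting treated these is not stated. Strand use is not stated either, so overlaps on the opposite strand carry the same limit. FTSJ3 covers 58.8% of PSMC5, with 1762 to 3076 fragments in a library against 1575 to 2699 for PSMC5. BECN1 covers 46.3% of PSME3, with 1003 to 1340 against 3738 to 7328. Further members have such overlaps, and their part in the values was not tested.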

Other observations

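The partners of the particle that changed included deubiquitinases, a ligase and a zinc finger protein. UCHL5, a deubiquitinase bound to the regulatory particle, went from 33.5 and 33.1 FPKM in the controls to 23.6 and 23.6 after MGH-CP1 (log2 fold change -0.48, SE 0.05, limma adjusted p = 0.0002). USP14, the other bound deubiquitinase, went from 46.0 and 43.7 to 35.1 and 38.3 FPKM (log2 fold change -0.28, SE 0.06, limma adjusted p = 0.0050). UBE3C, a ubiquitin ligase found on proteasomes, went from 65.3 and 66.7 to 54.5 and 54.4 FPKM (log2 fold change -0.27, SE 0.05, limma adjusted p = 0.0019). ZFAND5, a zinc finger protein that binds and stimulates the proteasome, went from 36.0 and 34.4 to 46.2 and 45.9 FPKM (log2 fold change 0.38, SE 0.05, limma adjusted p = 0.0006). The 2 deubiquitinases and the ligase had both MGH-CP1 libraries below both controls and ZFAND5 both above. These 4 were chosen after their values were seen.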
